A study of Mus musculus with 10 samples.

Results

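The endothelial genes described here are 10 of the 53465 genes in the count table. They were chosen by symbol, through the mouse gene identifiers of the table, and comprise 7 pan-endothelial genes, *Pecam1*, *Cdh5*, *Kdr*, *Tek*, *Tie1*, *Emcn* and *Cldn5*, and 3 lymphatic genes, *Prox1*, *Flt4* and *Lyve1*. All 10 passed the filter on low counts. The RNA came from whole pinna prominences, the outgrowths that form the external ear, dissected from mouse embryos at stage E14.5. WT embryos were compared with mEC1dup/dup embryos, in which CRISPR/Cas9 editing had placed an additional copy of mEC1, an enhancer of the transcription factor gene *Hmx1*, on both alleles. Both genotypes were on a C57BL/6 J background, with 5 libraries per genotype, and homozygotes were obtained by intercrossing heterozygotes. The comparison asks whether the vascular and lymphatic component of the tissue differed between the genotypes, and whether the lymphatic genes behaved differently from the pan-endothelial ones.

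Endothelial cells line the blood and lymphatic vessels. Blood vessels of the embryonic head grow under VEGF-A, which acts mainly through KDR (VEGFR-2), and are stabilized by angiopoietins acting on TEK (TIE2) and its partner TIE1. Lymphatic vessels arise largely from venous endothelium that switches on the transcription factor PROX1 and then grow towards VEGF-C, the ligand of FLT4 (VEGFR-3). PECAM1, VE-cadherin (the product of *Cdh5*) and claudin-5 hold endothelial cells together at their junctions, endomucin (*Emcn*) is a sialomucin of venous and capillary endothelium, and LYVE1 is a hyaluronan receptor of lymphatic endothelium that is also carried by some tissue macrophages.

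Total counts were even across libraries, 17536112 to 18265354 in WT and 17461544 to 18462073 in mEC1dup/dup, and the 10 genes had between 200 and 3648 counts in a library. *Hmx1* was higher in every mEC1dup/dup library (976 to 1356 counts) than in every WT library (376 to 526 counts), with a log2 fold change of 1.31. The genotypes also differed in other respects. *Xist*, the RNA of the inactive X chromosome, had 2096 to 19040 counts in 4 mEC1dup/dup libraries, 0 in the fifth and 2 to 5 in the WT libraries. Summed counts of 4 Y-linked genes (*Ddx3y*, *Kdm5d*, *Eif2s3y* and *Uty*) were 3088 to 3658 in WT and 639, 36, 31, 3024 and 3293 in mutant libraries 1 to 5. Mutant libraries 4 and 5 were thus near WT in Y-linked counts, libraries 2 and 3 were not, and libraries 1 and 4 held both *Xist* and Y-linked counts. The methods describe independent embryos, and whether these 2 libraries hold tissue or RNA of more than 1 embryo was not tested. Sex and genotype are therefore largely confounded, and values from WT and mutant libraries 4 and 5 alone, an alternative chosen after seeing the data, are given where they bear on a result. The embryonic share of globin counts was 18.4% to 23.3% in WT and 32.6% to 35.6% in mEC1dup/dup, with no overlap. Whatever goes with this share is therefore confounded with genotype as well. Over all 16426 tested genes, 434 were called different by edgeR's quasi-likelihood test, which is 2.64% of them. A call required a p-value of 0.05 or less after Benjamini-Hochberg adjustment and a mean abundance of 1 or more in log2 CPM, where CPM is the count scaled to the library size and normalized by TMM. Across the tested genes the log2 fold change had a median of -0.0041. The replicates came from separate litters, but which libraries share a litter is not given in the sources used here, and all p-values measure the spread between these libraries.

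The sequences just upstream of the genes are shown first because *Hmx1* encodes a DNA-binding protein and because endothelial genes are known targets of ETS-family factors such as ERG and FLI1. In the 250 bases before each Ensembl canonical start (GRCm39, GENCODE M39 annotation), 2 cores were searched on both strands, CAAGTG, a core bound by HMX proteins, and AGGAAG or CGGAAG, an ETS core. Neither core overlapped the other in the stretches printed here. The 3 promoters among the 10 that held CAAGTG were those of *Kdr*, *Emcn* and *Prox1*, and they are printed with that of *Lyve1*, the gene with the largest difference in level between genotypes. Each reads 5′ to 3′ on the strand of its gene, and capitals mark the matches to either core or its reverse complement. They lie at chr5:76139119-76139368 (minus strand), chr3:137046544-137046793 (plus strand), chr1:189903209-189903458 (minus strand) and chr7:110462461-110462710 (minus strand), in the order given.
Kdr: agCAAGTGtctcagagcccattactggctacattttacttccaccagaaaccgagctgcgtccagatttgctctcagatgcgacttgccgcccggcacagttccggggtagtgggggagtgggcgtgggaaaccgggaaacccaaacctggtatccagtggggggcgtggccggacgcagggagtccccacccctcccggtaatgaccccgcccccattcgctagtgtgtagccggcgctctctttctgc
Emcn: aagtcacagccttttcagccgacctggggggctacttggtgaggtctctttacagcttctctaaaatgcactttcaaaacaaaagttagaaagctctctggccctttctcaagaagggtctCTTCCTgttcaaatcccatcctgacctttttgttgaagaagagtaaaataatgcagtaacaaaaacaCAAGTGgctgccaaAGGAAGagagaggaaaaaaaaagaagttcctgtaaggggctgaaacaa
Prox1: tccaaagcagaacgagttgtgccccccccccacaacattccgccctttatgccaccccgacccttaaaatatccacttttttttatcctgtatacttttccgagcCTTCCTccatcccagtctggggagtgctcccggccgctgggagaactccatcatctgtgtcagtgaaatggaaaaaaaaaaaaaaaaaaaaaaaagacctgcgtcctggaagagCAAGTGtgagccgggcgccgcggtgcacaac
Lyve1: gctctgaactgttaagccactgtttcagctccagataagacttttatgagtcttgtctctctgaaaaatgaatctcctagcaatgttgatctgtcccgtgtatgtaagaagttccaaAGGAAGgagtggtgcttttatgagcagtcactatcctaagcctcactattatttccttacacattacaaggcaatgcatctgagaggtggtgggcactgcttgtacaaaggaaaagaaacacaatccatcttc

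CAAGTG was found in 2 of 7 pan-endothelial and 1 of 3 lymphatic promoters, beside 11% of the 16321 promoters of tested genes. The ETS core was found in 2 of 7 pan-endothelial promoters, those of *Tie1* and *Emcn* with 2 matches each, and in all 3 lymphatic promoters, beside 41.1% of all promoters. *Kdr* and *Prox1* each held 1 CAAGTG, which began at positions -248 and -31 relative to the start. A match is a description of the letters and not a binding site, and windows without a match may carry other forms of either motif.

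None of the 10 endothelial genes was called different between the genotypes by edgeR, and none by DESeq2 or limma-voom. Their adjusted p-values ran from 0.23 for *Pecam1* to 0.99 for *Flt4* in edgeR's quasi-likelihood test over all tested genes. Beside them, 1.81% of all tested genes were called lower and 0.834% higher in mEC1dup/dup. One of the 10, *Pecam1*, had an unadjusted p below 0.05, against 16.2% of all tested genes. In none of them were the 5 libraries of one genotype separate from the 5 of the other, a separation seen in 5.07% of all tested genes. Of the 10, 5 had a negative log2 fold change, and the median was -0.02. The 95% intervals of all 10 lay within a log2 fold change of 1 in either direction. They allowed at most a 1.27-fold increase, and for the 9 genes other than *Lyve1* no level lower than 0.847 of WT. These bounds hold for the fit with genotype alone and not for the fits with a covariate. In bulk RNA, fewer endothelial cells and less of a transcript per cell cannot be told apart. The study reports from single-cell RNA sequencing of this tissue and stage that the share of endothelial cells, among other types, changed significantly. Its text gives no direction for them, and those data were not used here.

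**Figure D1:**
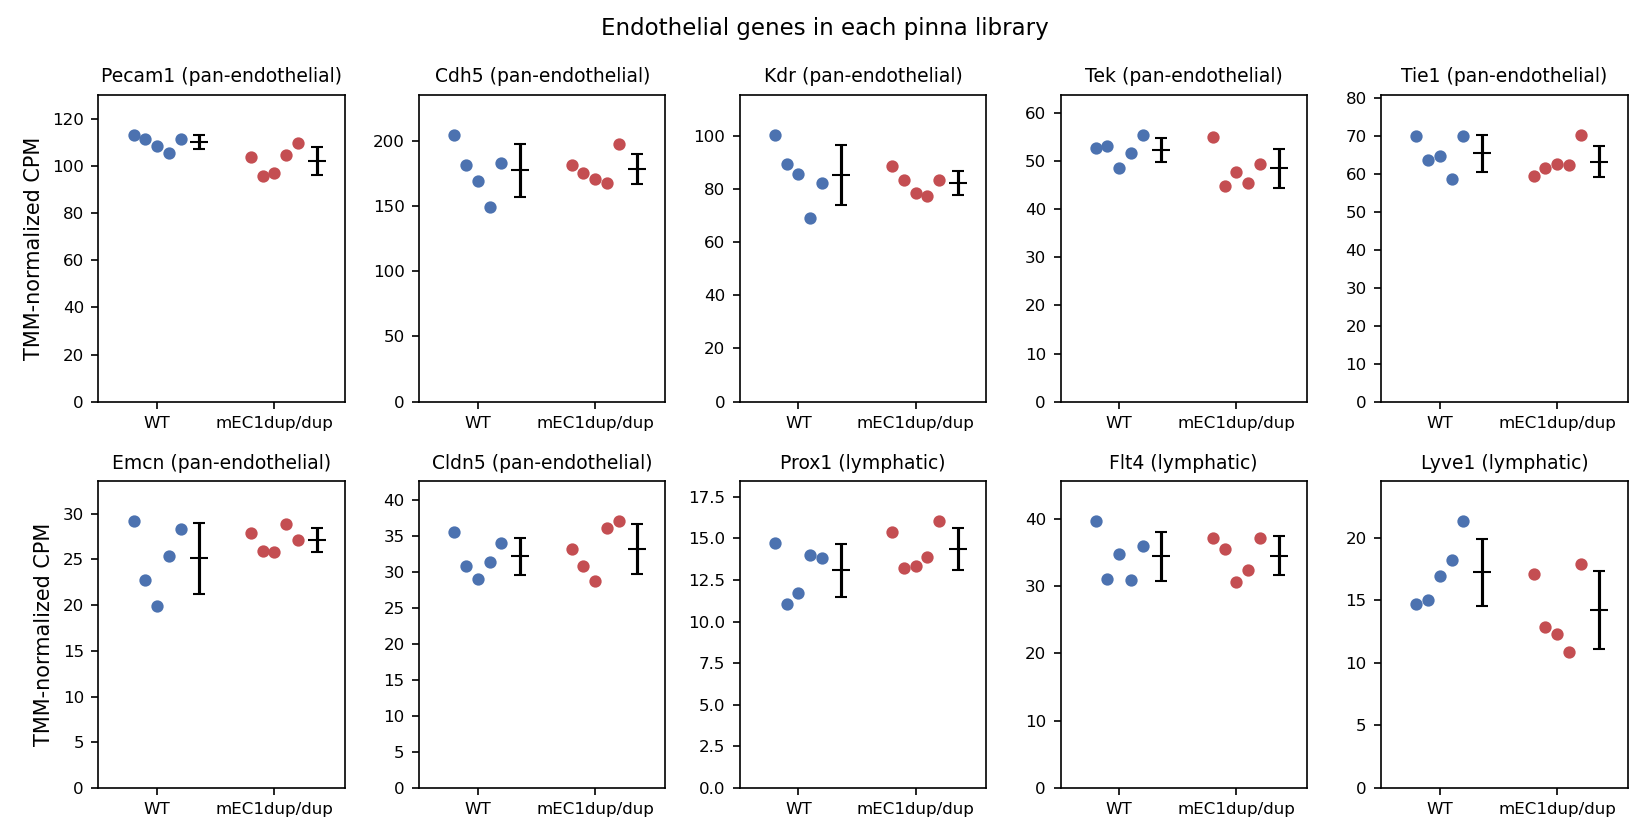
TMM-normalized CPM (vertical axes, each starting at 0) of the 10 endothelial genes in each library. Points are the 5 WT (blue) and 5 mEC1dup/dup (red) libraries in order of their numbers, 1 to 5 from left to right, and black bars give the mean ± SD; the genotypes overlap in every panel.

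Among the junction genes, *Pecam1* (chr11:106543689-106641454, GRCm39) came closest to a difference. Its CPM in WT libraries 1 to 5 was 113.1, 111.6, 108.4, 105.6 and 111.5, and in mEC1dup/dup libraries 1 to 5 it was 103.9, 95.6, 96.9, 104.8 and 109.9. The mEC1dup/dup libraries 1 to 4 lay below the lowest WT library, and library 5 lay within the WT range. The mean was 110 ± 3.0 CPM in WT and 102.2 ± 5.92 in mEC1dup/dup (SD, n = 5 each). The log2 fold change of -0.11 ± 0.04 (SE) had an unadjusted p of 0.027 and an adjusted p of 0.23 in edgeR's test. It was -0.0085 with *Xist* as a covariate and -0.03 over WT and mutant libraries 4 and 5, with unadjusted p-values of 0.89 and 0.50 in edgeR's test.

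*Cdh5* (chr8:104828231-104871143), which encodes the adhesive protein specific to endothelial adherens junctions, gave 204.6, 181.3, 169.1, 149.2 and 182.8 CPM in WT and 181.4, 175.8, 170.5, 167.7 and 197.5 in mEC1dup/dup. The WT libraries held both the highest and the lowest value, and the mutant libraries lay wholly between them. This gave a log2 fold change of 0.01, with a 95% interval from -0.15 to 0.17. *Cldn5* (chr16:18595597-18597012, a gene of a single exon), the tight-junction claudin of the blood-brain barrier, ranged from 29.1 to 35.5 CPM in WT and from 28.8 to 37.0 in mEC1dup/dup. Its log2 fold change was 0.04 (interval -0.12 to 0.21), and 0.21 with *Xist* as a covariate (not called), so the junction genes had 1 negative and 2 slightly positive values, none past the test.

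*Kdr* (chr5:76093487-76139884), the receptor through which VEGF-A drives endothelial growth, gave 100.3, 89.5, 85.5, 69.1 and 82.4 CPM in WT and 88.5, 83.3, 78.6, 77.2 and 83.5 in mEC1dup/dup. The spread was wider in WT (85.4 ± 11.3, SD) than in mEC1dup/dup (82.2 ± 4.46), and the mutant libraries again lay within the WT range. With a log2 fold change of -0.05 (interval -0.22 to 0.12) it was not called. The value turned to 0.01 without WT library 1, the highest of the 10, and to -0.12 without WT library 4, the lowest.

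The angiopoietin receptor gene *Tek* (chr4:94627291-94763224) gave 52.7, 53.1, 48.4, 51.7 and 55.4 CPM in WT and 54.9, 44.8, 47.6, 45.5 and 49.3 in mEC1dup/dup. Mutant libraries 2, 3 and 4 lay below the lowest WT library, and mutant library 1 was near the top of the WT range. The log2 fold change was -0.11 ± 0.06 (SE), with an adjusted p of 0.41 in edgeR's test. *Tie1* (chr4:118328385-118347261), its partner on the same chromosome, ranged from 58.6 to 70.1 CPM in WT and from 59.4 to 70.3 in mEC1dup/dup, ranges that nearly coincide. Its log2 fold change of -0.05 (interval -0.18 to 0.08) turned to 0.08 with *Xist* as a covariate and to 0.02 over WT and mutant libraries 4 and 5, and it was called in neither.

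*Emcn* (chr3:137046794-137138999), the venous and capillary sialomucin, gave 29.2, 22.7, 19.9, 25.4 and 28.4 CPM in WT and 27.9, 25.96, 25.8, 28.9 and 27.1 in mEC1dup/dup. The mutant libraries were tightly grouped and lay within the WT range. At 0.11 (interval -0.09 to 0.31), its log2 fold change was the highest of the pan-endothelial genes in this fit, and it was 0.037 without WT library 3. With *Xist* as a covariate, and over WT and mutant libraries 4 and 5, *Cldn5* was higher (0.21 against 0.13, and 0.19 against 0.16 for *Emcn*).

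Among the lymphatic genes, *Prox1* (chr1:189850232-189904637), which encodes the factor that sets lymphatic fate, gave 14.7, 11.1, 11.7, 14.0 and 13.8 CPM in WT and 15.4, 13.2, 13.4, 13.9 and 16.0 in mEC1dup/dup. Mutant libraries 1 and 5 exceeded all WT libraries, and no mutant library lay below the WT range. *Prox1* had a log2 fold change of 0.14 ± 0.10 (SE), with an adjusted p of 0.54 in edgeR's test, and of 0.27 with *Xist* as a covariate (not called). The antisense gene *Prox1os* overlaps 10.9% of its exonic bases, and the strand setting of the counting is not given in the sources used here, so reads from both may be joined.

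*Flt4* (chr11:49500090-49543582), the receptor for VEGF-C, gave 39.6, 31.0, 34.7, 30.9 and 35.9 CPM in WT and 37.1, 35.6, 30.6, 32.4 and 37.1 in mEC1dup/dup. The genotype means were 34.4 ± 3.66 and 34.5 ± 2.94 CPM (SD), and the log2 fold change was 0.0042, with an interval from -0.17 to 0.18. Its value was the nearest to 0 among the 10 genes.

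*Lyve1* (chr7:110448585-110462460) had the largest difference and the widest spread. It gave 14.7, 15.0, 16.95, 18.2 and 21.3 CPM in WT and 17.1, 12.9, 12.3, 10.8 and 17.9 in mEC1dup/dup. Mutant libraries 2, 3 and 4 lay below all WT libraries, while mutant libraries 1 and 5 lay within the WT range. The log2 fold change was -0.28 ± 0.15 (SE; interval -0.60 to 0.03), with an unadjusted p of 0.076 and an adjusted p of 0.38 in edgeR's test. Its SD of log2 CPM within genotypes was 0.27, against 0.07 to 0.17 for the other 9 genes. With *Xist* as a covariate its log2 fold change was -0.03, whereas over WT and mutant libraries 4 and 5 it was -0.26, and it was called in neither.

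**Figure D2:**
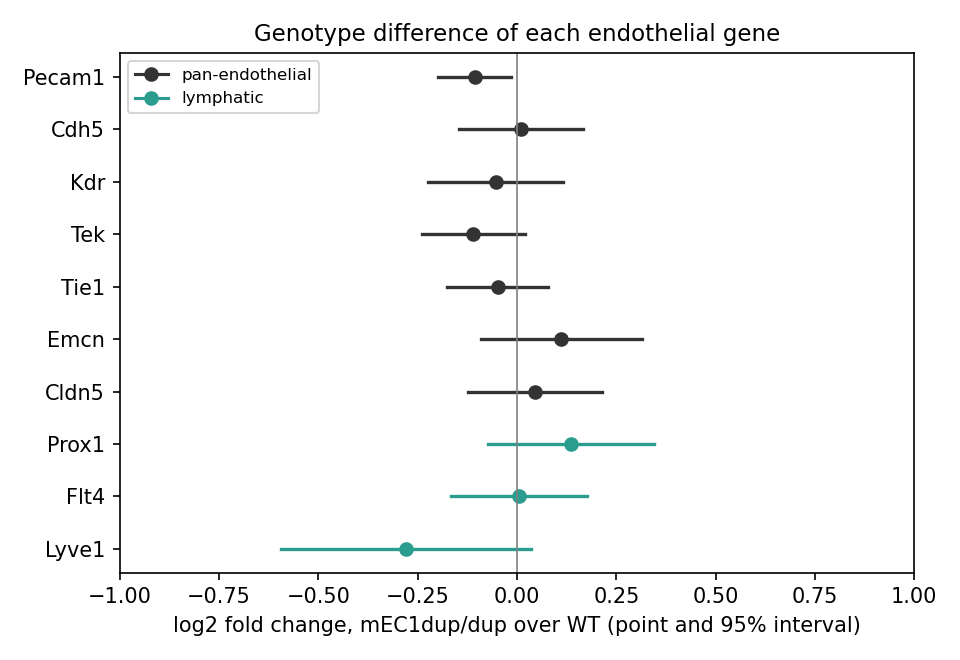
Log2 fold change of mEC1dup/dup over WT (horizontal axis) for the 7 pan-endothelial (dark) and 3 lymphatic (green) genes, as points with 95% intervals from edgeR's quasi-likelihood fit over 5 libraries per genotype. The interval of *Pecam1* lies below 0 (-0.20 to -0.01) and those of the other 9 genes cross 0, with the widest for *Lyve1* (-0.60 to 0.03).

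For comparison with genes of like abundance, 8766 tested genes had an average log2 CPM within the range of the 10 genes, 3.79 to 7.48. Of these, 3.02% were called and 18.5% had an unadjusted p below 0.05. The median absolute log2 fold change was 0.08 for the 10 genes and 0.06 for the genes of like abundance, and the median SE was 0.08 and 0.06.

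The pan-endothelial and lymphatic genes were then summarized as the mean log2 CPM of each class in each library. The pan-endothelial mean was 6.15, 5.998, 5.91, 5.90 and 6.08 in WT libraries 1 to 5 and 6.03, 5.93, 5.92, 5.98 and 6.08 in mEC1dup/dup libraries 1 to 5. The mutant libraries all lay within the WT range, and the genotype means were 6.01 ± 0.11 and 5.99 ± 0.07 (SD), a difference of -0.02. The lymphatic mean was 4.37, 4.12, 4.26, 4.32 and 4.46 in WT and 4.43, 4.20, 4.11, 4.09 and 4.47 in mEC1dup/dup. Here mutant libraries 1 and 5 were near the top and libraries 3 and 4 just below the lowest WT library, and the genotype means of 4.31 ± 0.13 and 4.26 ± 0.18 differed by -0.05. That difference ran from -0.10 without mutant library 5 to -0.0071 without mutant library 4.

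The lymphatic mean less the pan-endothelial mean was -1.70 ± 0.13 in WT and -1.73 ± 0.12 in mEC1dup/dup on the log2 scale (SD, n = 5 each). The difference of -0.03 between genotypes was smaller than either SD, and the ranges (-1.88 to -1.57 and -1.89 to -1.60) nearly coincided. The lymphatic mean rested on genes of opposite sign. Without *Lyve1*, an alternative chosen after seeing the data, the lymphatic difference was 0.07, within the SDs of 0.14 in WT and 0.12 in mEC1dup/dup. The lymphatic less pan-endothelial value was then -1.60 ± 0.10 in WT and -1.51 ± 0.06 in mEC1dup/dup, a difference of 0.09 that was smaller than the WT SD and larger than the mutant SD, with 3 of 5 mutant libraries above the highest WT library.

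**Figure D3:**
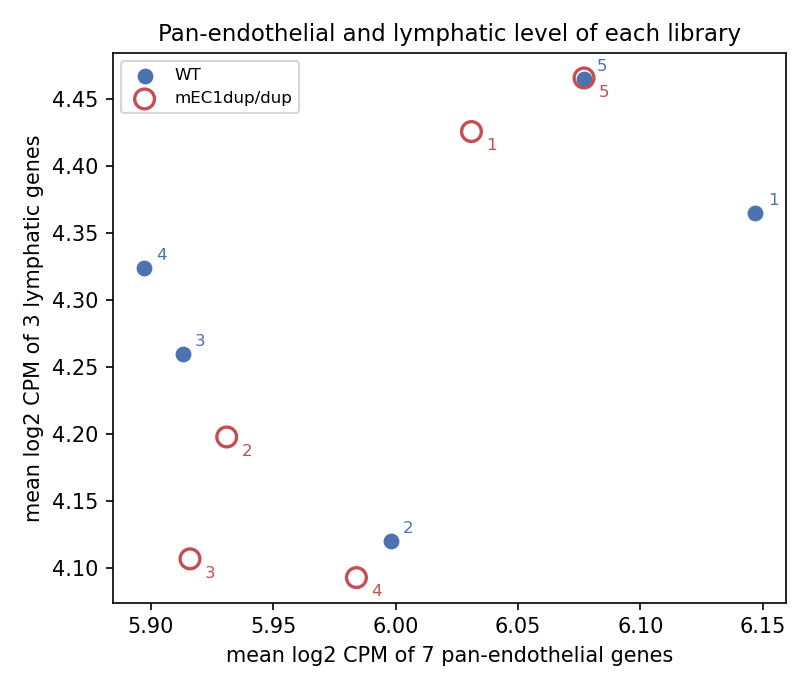
Mean log2 CPM of the 7 pan-endothelial genes (horizontal axis) and the 3 lymphatic genes (vertical axis) in each library, WT filled blue and mEC1dup/dup open red, with library numbers beside the points. The genotypes intermingle, and libraries numbered 5 of both genotypes coincide at 6.08 and 4.47.

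Levels were compared between genes per kilobase of annotated exon (CPM per kb). The length joined all annotated exons of a gene, 10002 bases for *Pecam1* and 1416 for *Cldn5*, and not those of 1 transcript. The order of the genes therefore depends on the annotation. *Cdh5* was highest in WT at 40.5 ± 4.64, followed by *Cldn5* at 22.7 ± 1.82, *Tie1* at 13.1 ± 0.97, *Pecam1* at 11 ± 0.30, *Kdr* at 9.28 ± 1.23 and *Tek* at 8.70 ± 0.42 (SD, n = 5). The lymphatic genes lay lower, *Flt4* at 4.18 ± 0.44, *Lyve1* at 4.14 ± 0.65 and *Prox1* at 1.46 ± 0.18, and *Emcn*, at 3.81 ± 0.59, was the one pan-endothelial gene among them. The ranges of neighbours in this order overlapped between *Pecam1* and *Kdr*, *Kdr* and *Tek*, *Flt4* and *Lyve1*, and *Lyve1* and *Emcn*, in both genotypes, and the other neighbours were separate in both. In mEC1dup/dup, *Lyve1* was at 3.41 ± 0.75 and *Emcn* at 4.11 ± 0.20, and *Emcn* was the higher in 4 of 5 libraries, whereas in WT *Lyve1* was the higher in 4 of 5.

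Deviations of log2 CPM from the genotype means show which genes varied together among the 10 libraries. These correlations describe 10 libraries, in which depth and dissection are common to both genes, and carry no test. *Cdh5* and *Kdr* had the highest correlation (Pearson r = 0.87), followed by *Pecam1* and *Cldn5* (0.82) and *Cdh5* and *Tie1* (0.81). The median was 0.44 over the 21 pan-endothelial pairs (0.09 to 0.87), 0.40 over the 21 pairs of a lymphatic and a pan-endothelial gene (-0.08 to 0.76) and 0.55 over the 3 lymphatic pairs (0.39 to 0.60). *Flt4* went along with *Cdh5* (0.76), *Prox1* with *Emcn* (0.74) and *Lyve1* with *Tek* (0.64), while *Lyve1* and *Kdr* had the lowest value (-0.08).

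Against the mean of 23 other pan-endothelial genes, *Cdh5* reached 0.95 and *Kdr* 0.86, and *Lyve1* only 0.15. Against the mean of 11 other lymphatic genes, *Flt4* was at 0.43, *Prox1* at -0.0040 and *Lyve1* at -0.46. The pan-endothelial genes ran from -0.55 for *Tek* to 0.62 for *Tie1* against that mean. Among 14074 tested genes outside the 10 with an average of at least 1 log2 CPM, those with deviations most like the pan-endothelial mean included *Agtr1a*, *Gimap1*, *Esyt1* and *Plin2* (r = 0.91 to 0.94). For *Prox1* they were *H2-T22* (0.96), *Usp20*, *Psmd2*, *Tnik* and *Kcnj8*, the last a potassium channel gene of pericytes. For *Flt4* they were *P2ry6* (0.94), *Nelfcd*, *Npepps*, *Zfp764* and *Mmrn1*, the last a marker of lymphatic endothelium (0.93).

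The 5 genes with deviations most like those of *Lyve1* were *Smyd1* (0.98), *Smpx*, *Tnni1*, *Myl1* and *Myog* (0.96), all genes of skeletal muscle. Against the summed level of 13 skeletal muscle markers on the log2 scale, *Lyve1* deviations had a Pearson r of 0.92 and a Spearman rho of 0.81 over 10 libraries, and r was 0.86 without the 2 libraries with the most extreme muscle level, WT library 5 and mEC1dup/dup library 1. The same r was 0.74 for *Tek*, 0.66 for *Prox1* and 0.55 for *Flt4*, and 0.12 to 0.39 for the other pan-endothelial genes. Without these 2 libraries it was 0.48 for *Tek*, 0.66 for *Prox1*, 0.48 for *Flt4*, 0.46 for *Tie1* and 0.13 for *Emcn*. Summed muscle CPM was 2665, 2309, 2463, 2694 and 3537 in WT and 2378, 1853, 1825, 1507 and 2276 in mEC1dup/dup. The 3 mutant libraries low in *Lyve1* were the 3 lowest in muscle markers. Of the 13 markers, 5 were called lower in mEC1dup/dup (*Acta1*, *Ttn*, *Myh3*, *Myh8* and *Ckm*, which encode the contractile apparatus and muscle creatine kinase) and none higher, and the median log2 fold change was -0.27. Of the 13, 10 were negative. *Myog*, *Myod1* and *Mymk* went the other way, at 0.12, 0.09 and 0.02, and *Pax7* was at -0.06 (none of these called). Of the 5 called markers, all but *Myh3*, called in 3 of 10 fits, were called whichever library was left out. With *Xist* as a covariate none of the 5 was called. Their log2 fold changes were then -1.85 (*Ckm*) to -0.58 (*Myh3*), with adjusted p-values of 0.20 to 0.45 in edgeR's test. Over only the libraries near WT in Y-linked counts none was called either, at -2.33 to -0.77 (adjusted p of 0.12 to 0.19 in edgeR's test). The part of muscle in the *Lyve1* values was not tested.

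**Figure D4:**
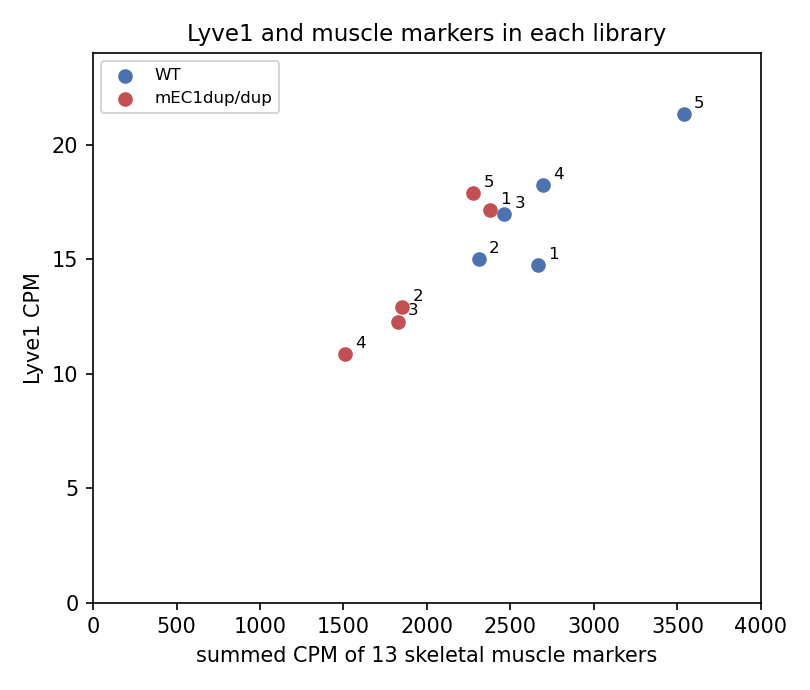
*Lyve1* CPM (vertical axis) against the summed CPM of 13 skeletal muscle markers (horizontal axis) in each library, WT in blue and mEC1dup/dup in red, with library numbers beside the points. Mutant libraries 2, 3 and 4 lie lowest on both axes and WT library 5 (3537 and 21.3 CPM) lies highest on both.

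Since *Lyve1* is also carried by macrophages, the macrophage list was read beside it. Of its 16 genes, 13 were tested and none was called by edgeR, DESeq2 or limma-voom (2 had an unadjusted p below 0.05 in edgeR), with 10 negative values and a median log2 fold change of -0.08. Their summed level was 333.3 to 389.4 CPM in WT and 294.1 to 364.4 in mEC1dup/dup. The lowest value was in mutant library 4, the lowest in *Lyve1*, and the highest in WT library 1, the lowest WT library in *Lyve1*. Against the mean of the macrophage list, deviations over 10 libraries had a Pearson r of 0.54 for *Lyve1*. The same r was 0.76 for *Prox1*, 0.75 for *Tek*, 0.63 for *Flt4* and 0.09 to 0.43 for the other pan-endothelial genes. Among genes of resident macrophages, *Mrc1* had 472 to 674 counts in a library and a log2 fold change of -0.22, with an unadjusted p of 0.013 and an adjusted p of 0.16 in edgeR's test. *F13a1* was at -0.21, with an unadjusted p of 0.036 in edgeR's test, and *Stab1* at -0.12. *Lyz2* was at -0.22, while *Cx3cr1* and *C1qa*, the highest of the list, were at 0.04 and 0.02. *Cd163*, *Folr2* and *Timd4* were too low to test, with at most 10, 11 and 12 counts. The part of macrophages in the *Lyve1* values was not tested.

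Other genes of the vascular pathways were read from lists, in each of which edgeR called at most 2 genes. DESeq2 called up to 4, in the list of other lymphatic genes. Of 23 other pan-endothelial genes, 1 was called lower, *Ramp2*, which encodes the co-receptor through which CALCRL binds adrenomedullin. Its CPM was 51.6, 51.4, 47.6, 43.5 and 50.5 in WT and 42.9, 42.7, 38.8, 40.2 and 43.4 in mEC1dup/dup, so that no mutant library reached the lowest WT library. The log2 fold change was -0.23 ± 0.06 (SE), with an adjusted p of 0.046 in edgeR's test, and the call held in only 1 of 10 fits with a library left out, that without WT library 4, with adjusted p-values of 0.0087 to 0.14. Of these 23 genes, 19 had a negative log2 fold change, against 51.2% of all tested genes, and 8 had an unadjusted p below 0.05. DESeq2 called 2 of them and limma-voom none. The negative values included *Crip2* (-0.38, adjusted p of 0.076) and *Ptprb* (-0.33, adjusted p of 0.11, both by edgeR), and the median of the list was -0.11 against -0.0041 for all tested genes. The highest were *Mmrn2* at 0.13 and *Plvap* at 0.07 (neither called).

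Among ligands and their processing enzymes, *Adamts14* fell, with 31.6, 32.8, 30.2, 25.5 and 33.3 CPM in WT and 21.7, 21.9, 21.1, 21.1 and 24.5 in mEC1dup/dup. It encodes a procollagen N-proteinase that can also activate VEGF-C. Its log2 fold change was -0.48 ± 0.08 (SE), with an adjusted p of 0.0080 in edgeR's test, and it was called in all 10 fits with a library left out. The ligand genes themselves were not called, *Vegfa* at a log2 fold change of 0.0036, *Vegfc*, the ligand of FLT4, at 0.12, and *Vegfd* at -0.25. *Adamts3*, a further VEGF-C-activating protease, was at -0.27 and not called. *Ccbe1*, a cofactor of VEGF-C processing, was at 0.37 with an adjusted p of 0.084 in edgeR's test.

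*Nrp2*, the co-receptor of VEGF-C in venous and lymphatic endothelium that also binds class 3 semaphorins in nerve and mesenchyme, rose. It gave 198.2, 190.0, 189.6, 164.5 and 189.4 CPM in WT and 214.0, 222.2, 215.5, 205.9 and 224.0 in mEC1dup/dup, so that every mutant library lay above every WT library. The log2 fold change was 0.22 ± 0.05 (SE), with an adjusted p of 0.031 in edgeR's test. The call was lost without WT library 2, 3 or 5 or mutant library 2, 3 or 5, at adjusted p-values of up to 0.091 over the 10 such fits. *Nrp2* belonged to both the venous list, in which it was the 1 gene of 4 called by edgeR and by limma-voom (2 by DESeq2), and to the list of other lymphatic genes. *Nr2f2* (COUP-TFII), a venous fate factor also expressed in mesenchyme, did not overlap between genotypes, at a log2 fold change of 0.19 with an adjusted p of 0.076 in edgeR's test. The other venous genes *Ephb4* and *Aplnr* were at 0.14 and -0.07 (not called), and *Ephb4* also did not overlap between genotypes. Thus 3 of 4 venous genes were separate, each higher in mEC1dup/dup, against 5.07% separate in either direction among all tested genes. The summed venous level was 688.9 to 798.4 CPM in WT and 825.8 to 858.2 in mEC1dup/dup, with no overlap. *Ephb4* had the highest mean of the 4 in WT, 350.5 CPM, against 177.4 for *Cdh5*. In which cells of the tissue these genes differed was not tested. The remaining co-receptor *Nrp1* and the decoy receptor *Flt1* were at -0.13 and -0.12 and were not called.

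*Reln*, which encodes reelin, secreted by lymphatic endothelium and by neurons, was the other gene of the lymphatic list called by edgeR, which like limma-voom called 2 of its 11 tested genes where DESeq2 called 4. It gave 8.55, 7.25, 8.08, 7.31 and 8.47 CPM in WT and 5.6, 5.18, 4.62, 4.05 and 6.01 in mEC1dup/dup, a log2 fold change of -0.64 ± 0.12 (SE) with an adjusted p of 0.018 in edgeR's test. The call was lost without mutant library 2 or 3, at an adjusted p of up to 0.061. Of the 11 tested genes of that list, 4 had a negative log2 fold change and the median was 0.06. *Gja1* was at -0.26 with an adjusted p of 0.076 in edgeR's test. *Gata2*, *Sox18*, *Mmrn1*, *Pdpn* and *Foxc2* were at -0.20, -0.0012, 0.06, 0.24 and 0.27 and were not called. *Ccl21a* had no counts in any library, and its near-identical copies may take its reads.

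On the angiopoietin-Tie axis, 5 of 6 genes were tested and *Svep1* fell. It encodes an extracellular matrix protein that binds TIE1 and is needed for lymphatic growth, and it is also made by mesenchyme. Its CPM was 46.3, 42.7, 44.5, 35.5 and 38.99 in WT and 35.4, 34.9, 30.2, 30.9 and 30.0 in mEC1dup/dup, a log2 fold change of -0.36 ± 0.08 (SE) with an adjusted p of 0.027 in edgeR's test. The highest mutant library lay just below the lowest WT library, and the call was lost without WT library 1, 2 or 3 or mutant library 3, 4 or 5, at an adjusted p of up to 0.086. The ligand genes *Angpt1* and *Angpt2* were at 0.08 and 0.07 and were not called.

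None of 11 arterial genes, 5 tip-cell genes and 14 tested endothelial transcription factor genes was called by edgeR, where 1, 0 and 1 had an unadjusted p below 0.05. DESeq2 called 1 arterial gene and limma-voom none in these lists. The medians of these lists were 0.08, -0.02 and -0.02. The arterial values ran from -0.17 for *Dll4* to 0.19 for *Hey1*, with *Efnb2* at 0.15 and an adjusted p of 0.060 in edgeR's test. *Efnb2*, higher in mEC1dup/dup, was the 1 gene of the 11 arterial ones that did not overlap between genotypes. The tip-cell values ran from -0.17 for *Esm1* and -0.09 for *Apln* to 0.07 for *Kcne3* and *Angpt2*. Of the transcription factor genes 8 were negative, the lowest *Hhex* at -0.43 and *Gata2* at -0.20, and the highest were *Tal1* at 0.35, with an unadjusted p of 0.023 in edgeR's test, and *Sox17* at 0.18. *Etv2*, the factor of early endothelial specification, had at most 1 count in a library. Of 9 tested pericyte and smooth-muscle genes 1 was called, *Rgs5*, a pericyte marker, at -0.50 with an adjusted p of 0.038 in edgeR's test. That call was lost without WT library 1, 2 or 3 or mutant library 1, 2 or 3, at an adjusted p of up to 0.11. Its log2 fold change was -0.29 with *Xist* as a covariate and -0.25 over WT and mutant libraries 4 and 5, where it was not called. Of the 9 genes 6 were negative, among them *Abcc9* at -0.27 and *Cspg4* at -0.25, with unadjusted p-values of 0.012 and 0.018 in edgeR's test, and the highest were *Acta2* at 0.12 and *Kcnj8* at 0.02.

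**Figure D5:**
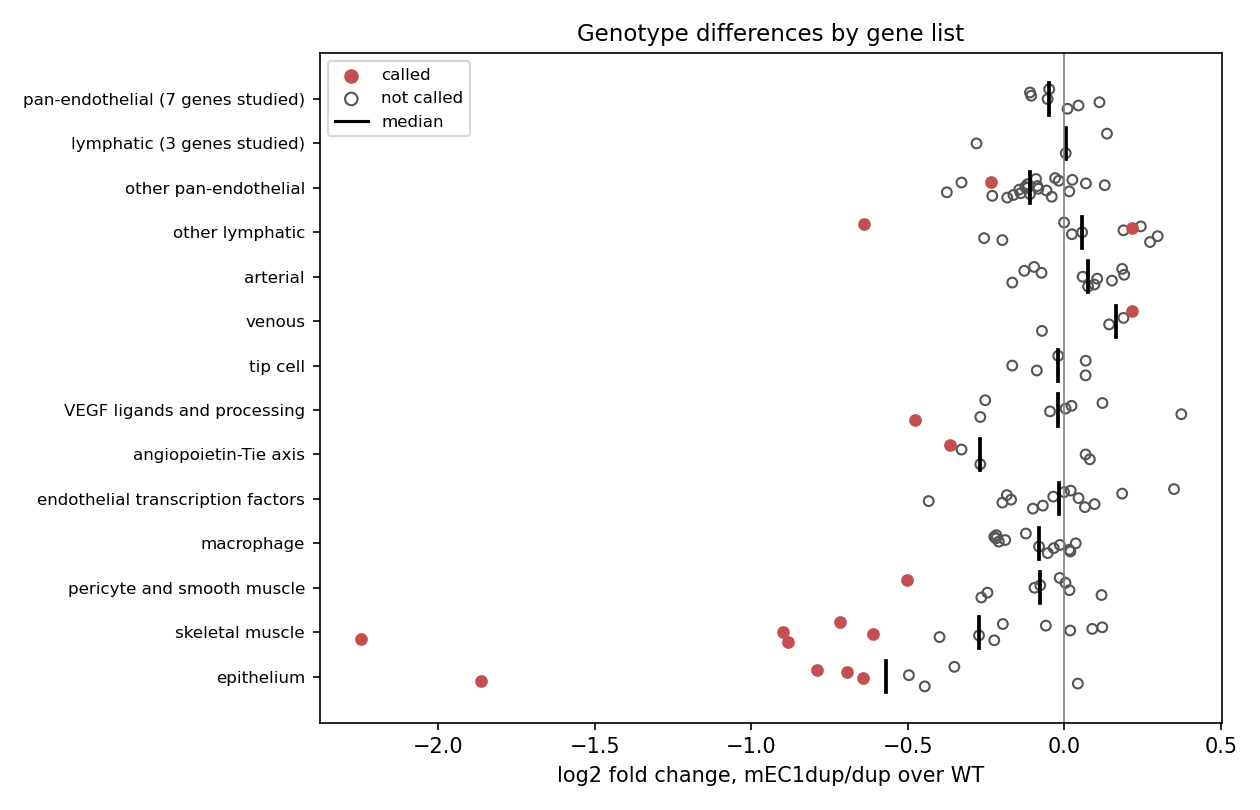
Log2 fold change of mEC1dup/dup over WT (horizontal axis) for the tested genes of 14 lists, 1 point per gene, filled red where the gene was called and open where it was not, with the median of each list as a black bar. The 10 endothelial genes lie between -0.28 (*Lyve1*) and 0.14 (*Prox1*) with none called, and 5 of 13 skeletal muscle genes and 4 of 8 epithelium genes were called.

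Markers of other cell types were read in the same way. Of 8 epithelial genes, 4 keratinocyte genes were called lower (*Krt5*, *Krt14*, *Krt10* and *Perp*), with a list median of -0.57, and the summed level was 908.2 to 1656 CPM in WT and 696.3 to 914.0 in mEC1dup/dup. *Krt10* and *Perp* were called whichever library was left out, *Krt5* in 5 and *Krt14* in 4 of 10 such fits. With *Xist* as a covariate none of the 4 was called, at log2 fold changes of -1.81 to -0.78 (adjusted p of 0.22 to 0.36 in edgeR's test). Over WT and mutant libraries 4 and 5 none was called either, at -1.87 to -0.76 (adjusted p of 0.16 to 0.22 in edgeR's test). Among blood genes, the embryonic globin genes *Hbb-y* and *Hba-x* were called higher (0.81 and 0.79) and *Hba-a2* lower (-0.49), and the platelet gene *Itga2b* was called lower (-0.59, adjusted p of 0.042 in edgeR's test). The other tested platelet genes were *Pf4* at -0.08 and *Gp1ba* at 0.86, which had 11 to 30 counts in a library, did not overlap between genotypes and had an adjusted p of 0.10 in edgeR's test. Each of the 4 called blood genes was called in 2 to 4 of 10 fits with a library left out. Of 8 mesenchyme genes 1 was called lower, *Lum*, which encodes the collagen-binding proteoglycan lumican (-0.30, adjusted p of 0.0074 in edgeR's test), and it was called whichever library was left out. *Lum* was at -0.37 with *Xist* as a covariate and at -0.34 over WT and mutant libraries 4 and 5, and was called in neither. The mesenchyme list had a median of -0.23 and a summed level of 9285 to 15120 CPM in WT and 10180 to 11160 in mEC1dup/dup. None of 5 chondrocyte genes was called by edgeR, DESeq2 or limma-voom, where 2 had an unadjusted p below 0.05 in edgeR, and their median was -0.30, from -0.69 for *Acan* and -0.67 for *Matn1* to 0.19 for *Sox9*. None of 7 Schwann cell and neuron genes was called by these tools, with 1 at an unadjusted p below 0.05 in edgeR and a median of -0.20. The part of these differences, or of sex, in the values of *Ramp2*, *Nrp2*, *Reln*, *Adamts14* and *Svep1* was not tested by a design that separates them. With *Xist* as a covariate these 5 genes kept their sign and none was called, at adjusted p-values of 0.32 to 0.54 in edgeR's test. *Ramp2* was then at -0.20, *Nrp2* at 0.24, *Reln* at -0.48, *Adamts14* at -0.36 and *Svep1* at -0.48. Over WT and mutant libraries 4 and 5, again with none called, *Ramp2* was at -0.23, *Nrp2* at 0.21, *Reln* at -0.66, *Adamts14* at -0.43 and *Svep1* at -0.45.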

How the data were processed

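Whole pinna prominences were sequenced as bulk RNA in 5 WT and 5 mEC1dup/dup libraries, described in the methods as independent embryos. Per the labels and the study's methods, the authors trimmed reads with fastp, checked them with FastQC, aligned them with STAR and counted them per gene with featureCounts. The deposited values are raw counts. The annotation release, strand setting and treatment of multi-mapping reads are not given in the sources used here. Of 53465 identifiers, 49355 matched GENCODE M39 (GRCm39), and the others held 0.111% of counts.

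Genes were filtered with filterByExpr, scaled by TMM and tested with edgeR 4.0.16 (R 4.3.3; glmQLFit and glmQLFTest, genotype alone), with Benjamini-Hochberg adjustment over 16426 genes. Calls needed an adjusted p-value of 0.05 or less and a mean abundance of 1 log2 CPM or more. Log2 CPM used a prior count of 2. The fit was tested on simulated data. Named genes were the 10 endothelial genes, *Hmx1*, the called and the most extreme genes of each list, and the 5 genes most like the pan-endothelial mean or each lymphatic gene, with some genes not reported here; further list genes were named after their values were seen, and not every extreme gene of the lists for other cell types is printed. Members and lists were chosen with earlier results of these data known. Alternatives were DESeq2 1.42.0, limma-voom (limma 3.58.1), other scalings, filters and prior counts, a replicate block, an *Xist* covariate, each library left out, and, chosen after seeing the data, a globin covariate, only the libraries near WT in Y-linked counts, and the lymphatic mean without *Lyve1*. Libraries of a genotype differed by more than sampling noise (chi-square over degrees of freedom 2.56 to 18.2). Figures were drawn with matplotlib 3.10.9.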

Additional observations from a re-analysis of the deposited data

Results flagged for a closer look

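In log2 CPM, none of the 10 endothelial genes and neither class mean had a library far from the others of its genotype. Among 46 groups of 5 libraries tested with Dixon's gap criterion, whose critical value is 0.71 and which chance passes in about 5% of groups, 3 values stood apart, all in markers of other cells. Summed globin was 2892 CPM in mEC1dup/dup library 5, against 1564 in the next, and this was also the mutant library with 0 counts of *Xist*. Summed epithelial markers were 914.0 CPM in mEC1dup/dup library 1, against 740.4 in the next. Summed macrophage markers were 389.4 CPM in WT library 1, against 341.0 in the next. On the CPM scale, *Tie1* in mEC1dup/dup library 5, at 70.3 CPM against 62.6 in the next, narrowly passed the same criterion. WT library 1 was also the highest of the 10 for the pan-endothelial mean, and *Kdr* moved from -0.05 to 0.01 without it.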

How the results depend on the processing

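None of the 10 endothelial genes was called in any fit run, including DESeq2, limma-voom, other scalings and filters, both covariates, the libraries near WT in Y-linked counts and each library left out. Over all genes, the DESeq2 Wald test called 515 lower and 342 higher, and an adjusted p of at most 0.01 left 62 and 16. With *Xist* as a covariate 1 was called lower (*Hba-a2* at -0.95) and 2 higher (*Hba-x* at 1.33 and *Hmx1* at 1.04), and *Tie1* turned to 0.076. Over WT and mutant libraries 4 and 5, the mutant libraries with Y-linked counts near WT, 0 were called lower and 1 higher by edgeR (1853 at an unadjusted p below 0.05), and *Tie1* turned to 0.020; fewer libraries entered that fit. With the embryonic globin share, chosen after seeing the data, 0 were called lower and 0 higher by edgeR (793 at an unadjusted p below 0.05), and *Pecam1*, *Kdr* and *Tie1* turned to 0.19, 0.71 and 0.36. *Cdh5*, *Flt4*, *Cldn5* and *Lyve1* moved to 0.68 (unadjusted p of 0.022 in edgeR), 0.64, 0.53 and -0.66 without a change of sign. *Ramp2*, *Svep1*, *Itga2b* and *Rgs5* turned to 0.078, 0.19, 0.65 and 0.51 and *Krt5*, *Krt14*, *Krt10* and *Perp* to 0.64, 0.71, 0.89 and 0.64. *Adamts14*, *Reln*, *Nrp2* and *Hmx1* moved to -0.11, -0.20, 0.56 and 0.34 without a change of sign. Since that share does not overlap between the genotypes, such a fit rests on variation within them. Leaving out each library gave 120 to 476 lower and 34 to 179 higher genes, with the lowest counts without mEC1dup/dup library 3 and the highest without WT library 4. The log2 fold changes then ran from -0.049 to 0.066 for *Cdh5*, -0.12 to 0.011 for *Kdr* and -0.035 to 0.059 for *Flt4*, the pan-endothelial difference from -0.05 to 0.02, the lymphatic difference from -0.10 to -0.0071 and the lymphatic less pan-endothelial difference from -0.07 to 0.01. *Lyve1* stayed between -0.38 and -0.19. *Ramp2* was also not called without the low-count filter or with limma-voom (adjusted p of 0.055 and 0.050). The numbers were not taken to pair the libraries, since 1 same-numbered pair had an r of deviations of -0.06, although the mean was 0.16 (highest 0.345) against -0.04 for other pairs, and 4 of 10 libraries were best matched to their own number. A replicate block raised the calls from 434 to 687, of which 487 were lower. Under it *Itga2b* was not called (adjusted p of 0.052), while *Crip2*, *Nr2f2*, *Efnb2*, *Gja1*, *Mrc1*, *Abcc9*, *Acan* and *Matn1* passed the threshold (0.0043, 0.028, 0.037, 0.021, 0.043, 0.022, 0.046 and 0.043).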
